A study of Saccharomyces cerevisiae with 24 samples.

Results

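Ribosomal RNA from translating fractions of a yeast polysome gradient was compared with ribosomal RNA of total RNA from untreated cells, to ask whether ribosomes engaged in translation carry the same pattern of rRNA modification as the whole pool. The comparison uses 4 of the 24 libraries of the series, chosen by their labels: WTtranslated replicates 1 and 2 (pooled gradient fractions 3 and 4) and WTinput replicates 1 and 2 (total RNA). All 4 come from wild-type cells of strain BY4741 grown at 30 °C in rich medium, kept without hydrogen peroxide for the 30 min in which parallel cultures were treated, and exposed to cycloheximide before harvest. Per the growth protocol the replicates are biological duplicates, and p-values reach no further than these libraries. In the tests of single positions the spread between libraries was moderated across positions. Positions with at least 50 reads in all 4 libraries were used, which left 5423 of the 5475 positions of the 4 mature rRNAs (1788 in 18S, 3382 in 25S, 146 in 5.8S and 107 in 5S).

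The groups also differ in how RNA was prepared. The translated RNA came from glass-bead extracts separated on a 10 to 50% sucrose gradient. By the sample numbers in the protocol, read in the order of the sample list, the input RNA was purified from cell pellets with a yeast RNA kit, while the same text also mentions an aliquot of the extract set aside for total RNA. Fraction and preparation cannot be told apart in this design. Parallel groups from cells treated with 1 mM hydrogen peroxide (H202input and H202translated, 2 libraries each) are used where the effect of the fraction was set against that after treatment.

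The mature rRNAs of yeast carry pseudouridines (Ψ), 2′-O-methylated riboses (Nm) and a small number of base modifications, which lie mainly in the decoding region, the subunit interface and the peptidyl transferase centre. H/ACA snoRNAs guide Ψ formation by base pairing with the rRNA, C/D snoRNAs guide ribose methylation, and stand-alone enzymes make most base modifications. Dense sucrose fractions hold mRNAs bound by several ribosomes, whereas total RNA also holds free subunits and precursors. In nanopore direct RNA sequencing a modified base changes the current and is miscalled more often, so the frequency of mismatched, inserted or deleted bases and the mean base quality at a position are indirect readouts of modification. They do not give the share of molecules that are modified. A list of 113 modified sites (45 Ψ, 56 Nm and 12 base-modified) was compiled from general knowledge, and all 113 passed the coverage minimum.

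The stretches below carry the clusters of sites at the subunit bridge and the peptidyl transferase centre, and the only positions that passed a test. They are shown as DNA letters from the reference bases in the deposited tables, 5′ to 3′, with numbering from the 5′ end of the mature RNA. In helix 69 of 25S (positions 2252 to 2270), which contacts the small subunit, the capitals mark Am2256, Ψ2258, Ψ2260, Ψ2264 and Ψ2266. In the A loop of the peptidyl transferase centre (25S positions 2913 to 2931), the capitals mark Um2921, Gm2922 and Ψ2923. At the end of 18S (positions 1771 to 1800), the capitals mark positions 1798 and 1799. Around 25S Ψ2416 (positions 2408 to 2424), the capital marks the Ψ with the lowest p-value of the 45.
helix 69: agtaAcTaTgacTcTctta
A loop: cgttggatTGTtcacccac
18S 3′ end: tccgtaggtgaacctgcggaaggatcaTTa
25S Ψ2416: tgttgagcTtgactcta

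Median coverage over all positions was 812 reads in input replicate 1, 8052 in input replicate 2, 596 in translated replicate 1 and 1492 in translated replicate 2. At the known sites the median coverage ran from 815 reads (translated replicate 1) to 12772 (input replicate 2). For a site with 50% mismatch, the Wilson 95% interval at that depth is 3.42 points wide on either side in translated replicate 1 and 0.867 points in input replicate 2. These intervals cover counting error only. In the replicates numbered 1, 5S was the least covered rRNA, with a mean of 64.2 reads in input and 63.9 in translated RNA.

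Few differences in base-call features were found between translated and total rRNA, and none lay at a known modified site. No position passed the test for mismatch, deletion or base quality, and 2 positions at the 3′ end of 18S passed for insertion, both lower in the translated libraries. The calls at an adjusted p under 0.05 were 0% of 5423 positions for mismatch, 0.0369% for insertion, 0% for deletion and 0% for base quality. At an unadjusted p under 0.05, 168 positions were counted for mismatch, 168 for insertion, 116 for deletion and 52 for base quality. The error counts were tested with a quasi-binomial logistic model and a quasi-likelihood F test, and base quality with limma, each with Benjamini-Hochberg adjustment over all 5423 positions. With limma on empirical logits, the numbers called were 0 for mismatch (172 unadjusted), 0 for insertion (192 unadjusted) and 0 for deletion (146 unadjusted).

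Differences were small in size as well as in number. The mean of the translated libraries differed from that of the input libraries by 5 percentage points or more at 0 positions for mismatch, 1 for insertion and 11 for deletion. The largest differences in deletion lay in 5S at low depth. At position 118 of 5S the deletion frequency was 33.8% and 30.3% in the input replicates and 14.3% and 27.9% in the translated replicates, with 65 reads in the shallowest library. Most of that difference came from translated replicate 1, and the position did not pass the test (adjusted p = 0.995).

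Pseudouridines were read as mismatches at similar frequency in translated and total rRNA. The mean over the 45 Ψ sites was 47.9% and 47.5% in input replicates 1 and 2, and 46.9% and 47.4% in translated replicates 1 and 2. Both translated libraries were below both input libraries, by a margin of 0.0611 points between the replicates numbered 2 and of 0.971 points between those numbered 1. The group means were 47.7% ± 0.306 and 47.2% ± 0.338 (SD, n = 2 each), a difference of -0.516 points. The exact two-sided permutation test gave p = 0.333, which is the smallest p that 2 against 2 libraries can give. With the median over sites in place of the mean, the difference turned to 0.554 points.

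Site by site, mismatch was lower in both translated libraries at 8 of the 45 Ψ and higher at 1, with 36 overlapping. Over all positions, 8.96% were lower in both translated libraries and 21.2% were higher. Most positions have low mismatch. Among the 363 positions outside the list with mismatch of at least 10%, 8.54% were lower and 10.7% higher, with a median absolute difference of 0.751 points between groups. The median difference was -0.763 points over the Ψ sites and 0.113 points over all positions. No Ψ passed the quasi-likelihood F test, and 2 of 45 had an unadjusted p under 0.05 in it, beside 168 of all 5423 positions. At 40 of the 45 sites the difference between groups was smaller than the larger of the 2 differences between replicates. The comparison itself favours that outcome, since means of 2 libraries vary less than single libraries. The median absolute difference between groups was 1.13 points over the Ψ sites and 0.295 points over all positions. Between replicates it was 2.05 (input) and 2.85 (translated) points over the Ψ sites, and 0.368 and 0.499 points over all positions. The odds ratios ran from 0.808 to 1.23, with a median of 0.984, and 43 of the 45 95% intervals held 1. The median interval, without adjustment for the number of positions, ran from 0.856 to 1.12, so shifts of that size at a single Ψ were not detectable here. Calls needed adjustment over all 5423 positions, so larger shifts at a single Ψ could also go uncalled.

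**Figure D1:**
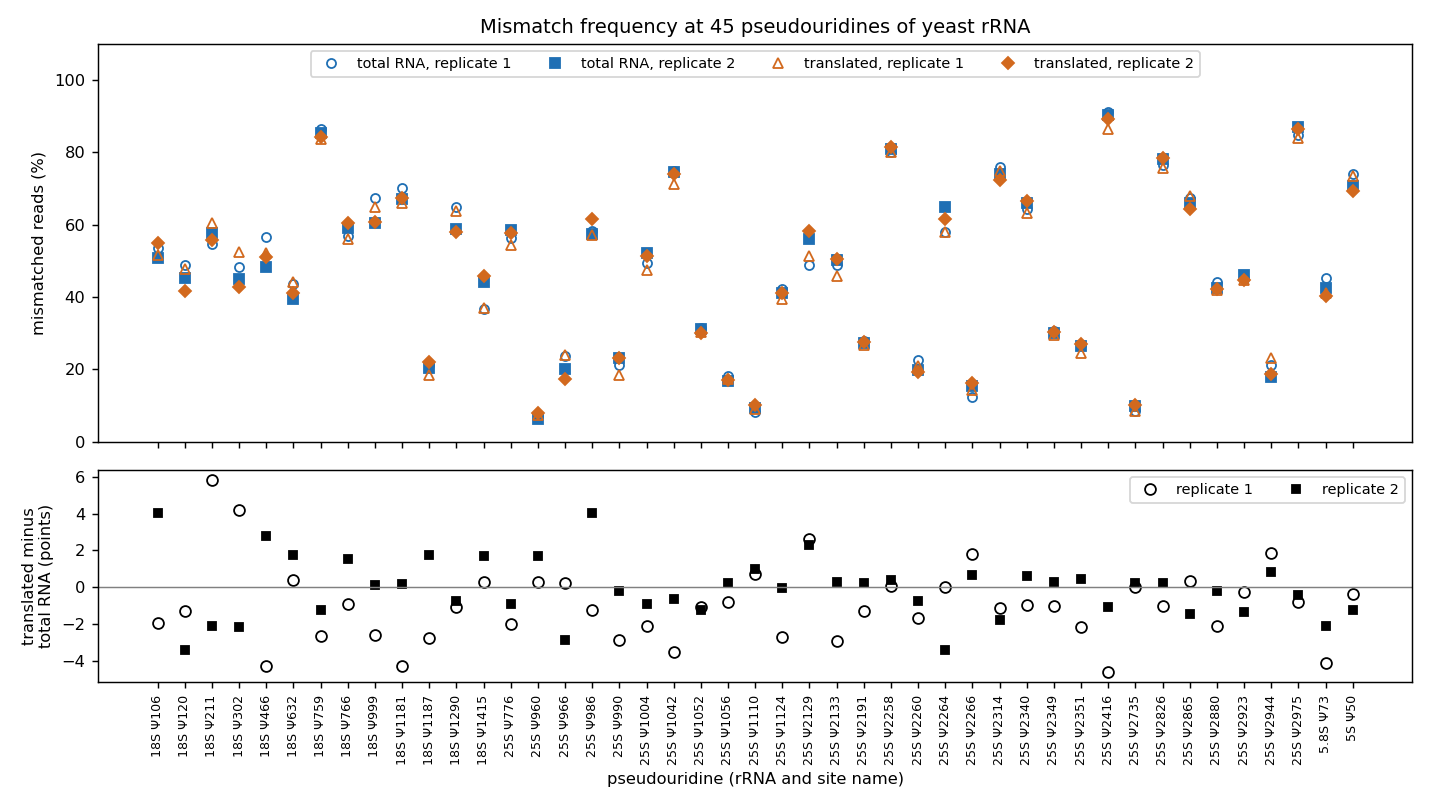
Mismatch frequency (percent of reads) at the 45 pseudouridines, 1 column per site in the order 18S, 25S, 5.8S and 5S; the upper panel shows each of the 4 libraries and the lower panel the translated minus total RNA difference (percentage points) between libraries of the same replicate number. Levels spanned 6.34% to 91.2%, and replicates of 1 group differed by up to 9.76 points at a site.

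The Ψ levels differed far more between sites than between libraries. The lowest were Ψ960 of 25S, at 6.98% and 6.34% in input and 7.30% and 8.03% in translated libraries, and Ψ2735 of 25S, at 8.54% and 9.87% against 8.56% and 10.1%. Ψ960 was also the site that was higher in both translated libraries. The highest was Ψ2416 of 25S, guided by snR11, at 91.2% and 90.4% in input and 86.6% and 89.3% in translated libraries. Here both translated libraries were lower, with an odds ratio of 0.808 (95% interval 0.679 to 0.962, adjusted p = 0.999, quasi-likelihood F test). Its difference of -2.85 points was exceeded among Ψ sites only by 5.8S Ψ73, the sole Ψ of that rRNA, at 45.2% and 42.4% in input and 41.1% and 40.3% in translated libraries (-3.11 points, 95 reads in the shallowest library). The other members of the top 5 by size were 25S Ψ2129 (2.46 points), 18S Ψ120 (-2.35 points) and 25S Ψ1042 (-2.06 points), and the groups overlapped at the first and second of these. The sign at both turned with 1 library left out, to -1.21 at Ψ2129 without input replicate 1, to -1.06 there without translated replicate 2, and to 0.601 at Ψ120 without translated replicate 2.

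In 18S, mismatch over the 13 Ψ sites averaged 54.6% and 52.5% in input and 53.8% and 52.8% in translated libraries. In 25S, the average over 30 sites was 44.2% and 44.7% in input and 43.3% and 44.6% in translated libraries. Of the 8 sites lower in both translated libraries, 1 lay in 18S (Ψ759) and 6 in 25S. The mean for 18S was highest in input replicate 1, and the 25S mean was lowest in translated replicate 1. Ψ50, the sole Ψ of 5S, was read as mismatch in 74.0% and 70.6% of input reads and 73.6% and 69.4% of translated reads, so the replicates differed more than the groups.

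Helix 69 of the large subunit, which forms a bridge to the decoding region, had no site that passed the test in any feature. Ψ2258, guided with Ψ2260 by snR191, stood at 80.1% and 81.0% in input and 80.2% and 81.4% in translated libraries. Ψ2260 stood at 22.5% and 19.9% in input and 20.8% and 19.2% in translated libraries. At both sites the groups overlapped.

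Ψ2264, guided by snR3, stood at 58.0% and 65.0% in input and 58.0% and 61.6% in translated libraries, with an unadjusted p of 0.0472 in the quasi-likelihood F test and an adjusted p of 0.999. Ψ2266 stood at 12.5% and 15.5% in input and 14.3% and 16.2% in translated libraries. At Am2256, insertion was 4.96% and 4.93% in input and 3.68% and 5.99% in translated libraries. The groups overlapped at each of these sites, and at Ψ2264 the replicates of each group lay further apart than the group means. The mean mismatch over the 5 sites of helix 69 was 51.9% ± 1.34 in input and 51.7% ± 0.544 in translated libraries (SD, n = 2 each).

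Around the peptidyl transferase centre, where peptide bonds form, the differences were likewise small. Ψ2923 stood at 45.0% and 46.0% in input and 44.8% and 44.6% in translated libraries, lower in both (difference -0.812 points, odds ratio 0.950, 95% interval 0.870 to 1.04). Ψ2826, guided by snR34, stood at 76.6% and 78.2% in input and 75.6% and 78.4% in translated libraries. Ψ2865 stood at 67.5% and 65.9% in input and 67.9% and 64.5% in translated libraries. The last 2 sites overlapped between groups.

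At Um2921, insertion was 20.3% and 22.2% in input and 20.2% and 21.5% in translated libraries. At Gm2922, methylated by Spb1, it was 19.6% and 21.7% in input and 19.2% and 20.8% in translated libraries. At both Nm sites the groups overlapped in insertion, and replicate 1 was below replicate 2 in each group. Mismatch at Um2921 was 77.3% and 77.7% in input and 74.8% and 76.9% in translated libraries, lower in both by 1.67 points on average (odds ratio 0.923, 95% interval 0.829 to 1.03). Mismatch was lower in both translated libraries at 2 of these 5 sites, beside 8.96% of all positions.

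The sites guided by the snoRNAs that the study deleted in other strains were also close. Besides Ψ2264 and Ψ2826, Ψ2129 (snR3) stood at 48.7% and 56.1% in input and 51.4% and 58.4% in translated libraries, and Ψ2133 (snR3) at 48.8% and 50.3% against 45.8% and 50.6%. Ψ2880 (snR34) stood at 44.1% and 42.5% in input and 42.0% and 42.3% in translated libraries, and was lower in both. Ψ1187 of 18S (snR36) stood at 21.3% and 20.3% in input and 18.5% and 22.1% in translated libraries. At Ψ2129 the replicates of each group lay over 7 points apart, against a difference of 2.46 points between groups.

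At ribose-methylated sites insertion was the readout chosen for the class, and its mean level differed by less than the spread between the translated replicates. The mean insertion frequency over the 56 Nm was 22.2% and 22.2% in the input replicates and 22.3% and 22.1% in the translated replicates. The difference was -0.0110 points (exact two-sided permutation p = 1). Insertion was higher in both translated libraries at 4 of 56 sites and lower at 5, against 19% and 9.94% of all positions. No Nm passed the test. Mismatch at the Nm averaged 18.5% and 18.7% in input and 18.3% and 18.7% in translated libraries. It was higher in both translated libraries at 7 sites (12.5%) and lower at 4 (7.14%), against 21.2% and 8.96% of all positions. Its largest difference was -2.96 points at Am420 of 18S, where the groups overlapped.

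The largest insertion difference at an Nm was at Cm1437 of 25S, guided by snR24, with 56.9% and 58.0% in input and 51.9% and 55.7% in translated libraries. Both translated libraries were lower by an average of 3.64 points, with an odds ratio of 0.874 (95% interval 0.765 to 0.999). Its unadjusted p was 0.0490 in the quasi-likelihood F test, and it did not pass after adjustment. Um898, guided by snR40, was also lower in both, at 28.0% and 29.8% in input and 25.9% and 27.7% in translated libraries. Gm2815, guided by snR38, was higher in both, at 12.6% and 14.8% in input and 16.4% and 14.8% in translated libraries, the second values lying 0.0718 points apart. Um1888, guided by snR62, overlapped, at 19.1% and 21.6% in input and 16.9% and 20.0% in translated libraries. Am807 was lower in both, at 19.2% and 18.6% in input and 18.1% and 15.8% in translated libraries.

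The 12 base-modified sites were close as well, and 0 passed the test for any feature. In the decoding region, m7G1575 of 18S, made by Bud23, was the only base-modified site higher in mismatch in both translated libraries, at 44.3% and 46.9% in input and 47.9% and 48.7% in translated libraries. Its odds ratio was 1.07 (95% interval 0.981 to 1.17). Base-modified sites higher in mismatch in both translated libraries were thus 1 of 12 (8.33%), beside 21.2% of all positions. The hypermodified m1acp3Ψ1191, which faces the P site, stood at 46.9% and 46.9% in input and 48.6% and 46.4% in translated libraries. The groups overlapped there.

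The acetylated cytidines made by Kre33 gave low mismatch, with ac4C1280 at 3.17% and 5.24% in input and 2.98% and 5.42% in translated libraries, and ac4C1773 at 4.50% and 5.82% against 5.24% and 5.31%. The neighbouring dimethyladenosines made by Dim1 were m62A1781, at 39.7% and 32.4% in input and 38.5% and 33.0% in translated libraries, and m62A1782, at 24.4% and 23.5% against 26.2% and 22.7%. At Cm1639, insertion was 3.37% in both input replicates and 3.03% and 4.09% in the translated replicates. At all 5 of these sites the groups overlapped.

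In 25S, m1A645, methylated by Rrp8, had mismatch of 45.1% and 54.6% in input and 44.6% and 57.1% in translated libraries. The other m1A, at 2142 and made by Bmt2, had 61.8% and 55.7% in input and 60.1% and 55.0% in translated libraries. At both the replicates differed by over 5 points in the same direction in each group, while the group means differed by 0.992 and -1.21 points. The methylated uridine m3U2843 stood at 16.2% and 15.3% in input and 15.0% and 15.5% in translated libraries.

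No known site passed for deletion or base quality. Deletion was higher in both translated libraries at 19 of the 113 sites and lower at 15, against 16.8% and 11.1% of all positions. Base quality was higher at 9 of 113 and lower at 20, against 4.46% and 14.7% of all positions. The largest deletion difference at a known site was 2.78 points, at Am100 of 18S, and no known site differed by 1 unit of base quality or more. Uridines outside the list that were read as mismatch in at least 10% of reads numbered 125. Of these, 13 (10.4%) were higher and 12 (9.6%) lower in mismatch in both translated libraries. The shares were 10.7% and 8.54% of the 363 positions of any base outside the list at that mismatch level, and 21.2% and 8.96% of all positions.

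The 2 positions that passed lay next to the 3′ end of 18S, the end that the nuclease Nob1 forms in the cytoplasm by cutting the precursor. At position 1798, insertions were found in 127 of 1054 reads (12.0%, Wilson 95% interval 10.2 to 14.2) and 1714 of 15361 reads (11.2%, 10.7 to 11.7) in input replicates 1 and 2. In translated replicates 1 and 2 they were found in 64 of 925 reads (6.92%, 5.46 to 8.74) and 106 of 2280 reads (4.65%, 3.86 to 5.59). Both translated libraries were below both input libraries, and the intervals did not overlap. The odds ratio was 0.443 (95% interval 0.357 to 0.551, adjusted p = 1.5e-07, quasi-likelihood F test). For insertion the moderated dispersion had 54.9 prior degrees of freedom, so such p-values rest mostly on the spread at other positions.

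At position 1799 insertions were found in 9.31% and 6.66% of input reads and 3.41% and 2.56% of translated reads, an odds ratio of 0.393 (95% interval 0.288 to 0.537, adjusted p = 1.95e-05, quasi-likelihood F test). Position 1797 did not pass (6.53% and 8.57% against 7.31% and 5.40%, adjusted p = 0.873) and overlapped between groups. Positions 1796 (7.92% and 8.53% against 7.32% and 6.49%) and 1795 (6.27% and 7.34% against 5.53% and 5.87%) were lower in both translated libraries by 1.32 and 1.11 points on average, and did not pass. Over the last 15 positions of 18S insertion was lower in both translated libraries at 5 and higher at 3, beside 9.94% and 19% of all positions. Base quality was higher in both translated libraries at the last 2 positions, and coverage at the last base was 539 reads in input replicate 1 and 451 in translated replicate 1.

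The calls were lost under some settings, in which the differences kept their sign. Without translated replicate 2 the adjusted p rose to 0.438 at position 1798 and 0.452 at position 1799, with limma on empirical logits it was 0.9998 and 0.816, and neither was called in the fit of all 8 libraries. Without translated replicate 2 the differences were -4.68 and -4.57 points, beside -5.82 and -5.00 points with it. The log odds ratios at positions 1798 and 1799 were -0.81 and -0.93 in the 4 libraries and -0.77 and -1.02 with limma on empirical logits. Without translated replicate 2 they were weaker, at -0.53 and -0.73. The fit of all 8 libraries gives each group its own level, so its log odds ratios equal those of the 4 libraries by construction. In peroxide-treated cells the difference of group means was in the opposite direction at both positions. Position 1798 stood at 4.83% and 8.64% in H202input and 6.00% and 17.8% in H202translated, so the groups overlapped. Position 1799 stood at 0.828% and 3.37% against 3.72% and 10.5%, without overlap. The highest value at both came from H202translated replicate 2, which also had the highest mean insertion over all positions (5.99%) of the 8 libraries. The interaction of fraction and treatment had an unadjusted p of 0.00321 at position 1798 and 0.00039 at position 1799 in the quasi-likelihood F test, and neither passed adjustment over 4535 positions (adjusted p = 0.999 for both).

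Other untreated libraries of the series were set beside these after the values were seen, with no test. At position 1798 insertion was 10.3% in the total RNA of another wild-type library and 12.0%, 8.41% and 10.1% in that of the snR3, snR34 and snR36 deletion strains. It was 4.61% and 6.77% in the replicates of gradient fraction 3 and 3.33% and 7.66% in those of fraction 4, of which fraction 4 replicate 1 had 90 reads. All 4 total RNA libraries were above all 4 fraction libraries, as in the comparison described here. The lighter fractions had both higher and lower values, at 8.87% and 3.26% in fraction 1 and 8.16% and 3.97% in fraction 2. Over all 20 libraries with base-call features, those after peroxide included, the values ran from 3.26% to 17.8%.

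**Figure D2:**
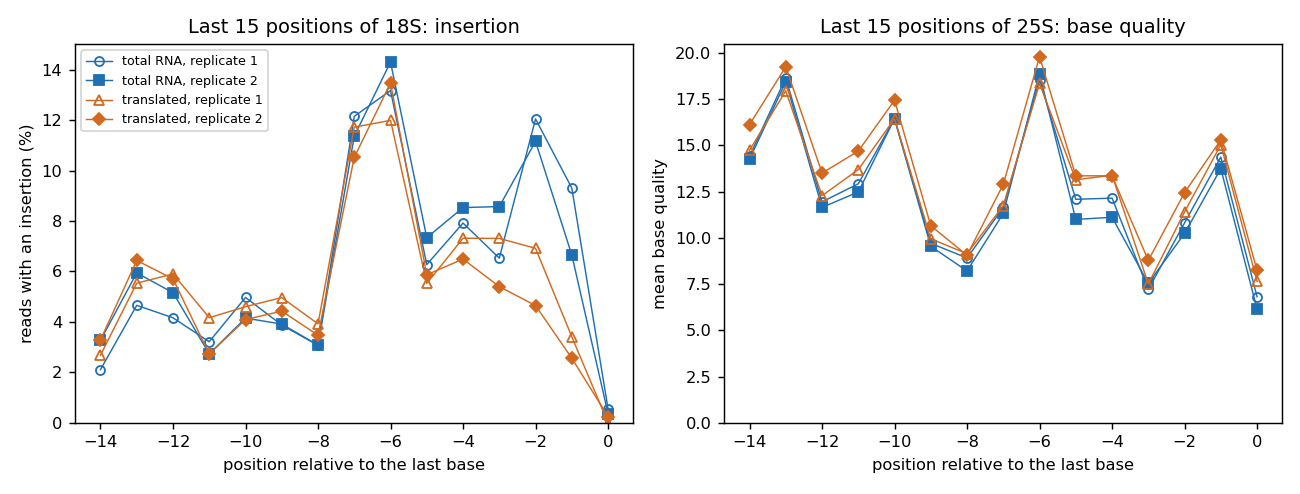
Left, reads with an insertion (percent) and right, mean base quality (the deposited score), over the last 15 positions of 18S and of 25S, by position relative to the last base, with 1 line per library. Insertion in the 2 translated libraries falls below both input libraries at the first and second positions before the last base of 18S (4.65% to 6.92% against 11.2% to 12.0%, and 2.56% to 3.41% against 6.66% to 9.31%).

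The positions with the lowest p-values for the other features did not pass. For base quality 3 of the first 5 lay at rRNA 3′ ends. The last base of 18S had a mean quality of 5.04 and 5.01 in input and 5.93 and 6.61 in translated libraries, and the last base of 25S had 6.82 and 6.15 against 7.64 and 8.24. Position 3392 of 25S had 12.2 and 11.1 in input and 13.4 and 13.4 in translated libraries. Quality was higher in both translated libraries at 12 of the last 15 positions of 25S and at 2 of the last 15 of 18S, beside 4.46% of all positions. Neighbouring positions are covered by largely the same reads, so these counts are not of separate observations. In peroxide-treated cells the mean difference was negative throughout the last 15 positions of 25S, from -3.35 units at position 3394 to -0.557 at the last base. Over unmodified positions it was -0.432 units in those cells. In 5.8S, quality was lower at position 111 (5.20 and 4.92 against 3.94 and 4.07) and higher at position 151 (11.0 and 11.3 against 12.8 and 12.7).

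For mismatch, the lowest p-values were at positions 1794, 1263 and 970 of 18S, 112 of 5S and 2482 of 25S. Position 1794 stood at 4.57% and 5.86% in input and 3.25% and 3.77% in translated libraries, and position 1263 at 4.44% and 4.90% against 6.96% and 6.36%. Position 970 stood at 5.58% and 4.55% against 7.25% and 6.15%, and position 2482 of 25S at 0.515% and 0.645% against 1.70% and 1.16%. At position 112 of 5S it was 2.82% and 2.55% in input, 0 of 72 reads in translated replicate 1, which allows up to 4.17%, and 1.05% in translated replicate 2. The groups did not overlap at these 5 positions, an outcome favoured by picking them by p-value. Over all positions, 21.2% were higher and 8.96% lower in mismatch in both translated libraries. None of the 5 is a known site, of which there are 113 among the 5423 positions.

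Insertion at position 1642 of 18S was 17.2% and 15.9% in input and 17.4% and 19.0% in translated libraries, and at position 190 of 25S 4.23% and 5.68% against 2.33% and 2.53%. For deletion, positions 1038 (3.98% and 3.35% against 5.58% and 4.63%) and 892 (1.46% and 1.68% against 3.09% and 2.62%) of 18S were higher in both translated libraries. In 25S, position 1745 was higher (1.49% and 1.42% against 1.84% and 2.96%), and position 2252, the base that opens the printed helix 69 stretch, was lower (2.02% and 2.00% against 1.23% and 0.962%). Position 494 of 25S was also lower, at 0.982% and 1.11% in input, 0 of 281 reads in translated replicate 1, which allows up to 1.07%, and 0.190% in translated replicate 2.

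Positions away from modification, defined as 6 or more bases from every listed site, had slightly higher mean error in both translated libraries. Over 4492 such positions the mean mismatch frequency was 2.82% and 2.92% in input and 3.00% and 2.99% in translated libraries, and the mean insertion frequency was 4.52% and 4.51% against 4.67% and 4.62%. The mean deletion frequency was 4.73% and 4.84% in input and 4.84% and 4.85% in translated libraries. For these 3 features both translated libraries were above both input libraries, with an exact two-sided permutation p of 0.333 each, the smallest possible. The mismatch difference of 0.128 points ranged from 0.0773 points without input replicate 1 to 0.179 without input replicate 2, and the deletion difference of 0.0611 points from 0.00895 to 0.113 without the same libraries. Mean base quality was 18.2 and 18.2 in input and 17.9 and 18.2 in translated libraries, and overlapped. Relative to unmodified positions of the same base, the Ψ difference was -0.650 points and the Nm insertion difference was -0.136 points.

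Libraries with the same replicate number were closer in mismatch, insertion and deletion than replicates of a group. After the counting variance was subtracted, the root mean square difference in mismatch over 5423 positions was 0.841 points between the 2 input libraries and 0.958 points between the 2 translated libraries. Between input and translated replicates 2 it was 0.207 points, and between input and translated replicates 1 the subtraction left 0. The mean chi-square per position of that last pair was 1.11, slightly above the value of 1 for counting alone, against 1.66 and 1.53 between replicates. For insertion the replicates differed by 0.933 and 1.06 points, against 0.260 points between the libraries numbered 2 and 0 after subtraction between those numbered 1 (mean chi-square 1.08). For deletion the replicates differed by 1.06 and 1.17 points, against 0.237 points between the libraries numbered 2 and 0.667 points between those numbered 1. Base quality did not follow this order throughout: the root mean square difference, with no counting variance to subtract, was 0.640 units between input replicates and 0.853 between translated replicates, against 0.374 between the libraries numbered 2 and 0.692 between those numbered 1. The labels do not say what a replicate number stands for beyond separate cultures, and its part in the results was not tested beyond the block given in the closing section.

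**Figure D3:**
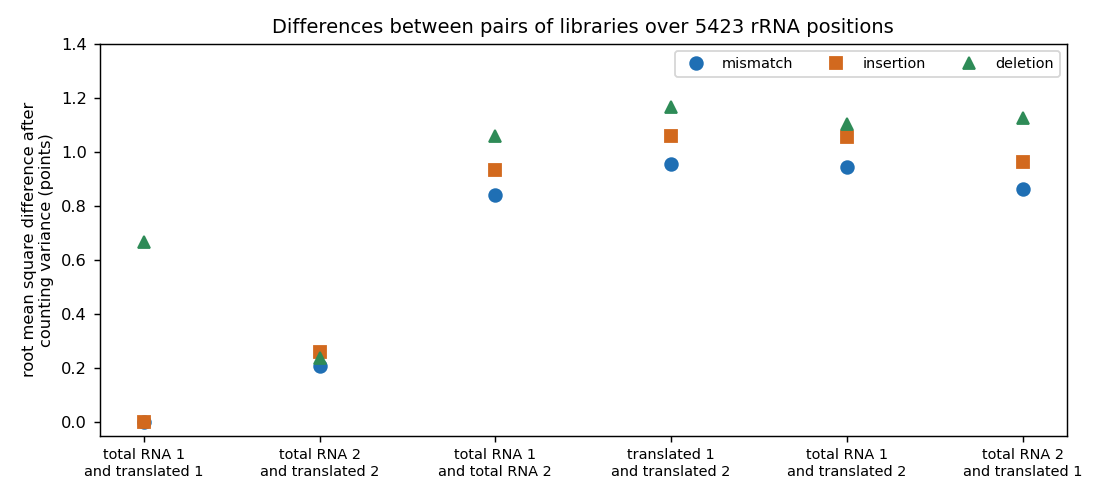
Root mean square difference (percentage points, after subtracting the counting variance, not below 0) in mismatch, insertion and deletion frequency over 5423 positions for each of the 6 pairs of libraries. The 2 pairs that share a replicate number, at the left, are at 0.667 points or lower, and the 4 others are at 0.841 points or higher.

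At known sites the same contrast was seen in single values. Differences of at least 5 points in mismatch between replicates 1 and 2, as the mean over both groups with the same sign, were found at 14 of 113 sites, and differences of that size between translated and input at 0. Over all positions the numbers were 45 and 0. The 5 largest were named after the values were seen. They are m1A645 of 25S described above, Am2946 of 25S, guided by snR71 (42.9% and 51.5% in input, 43.2% and 50.8% in translated libraries), Ψ1415 of 18S, guided by snR83 (36.8% and 44.2%, against 37.1% and 45.9%), Ψ2129 of 25S and Ψ302 of 18S (48.3% and 44.9%, against 52.5% and 42.7%). At the first 4 of these, replicate 2 was higher in both groups, and at Ψ302 it was lower in both.

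**Figure D4:**
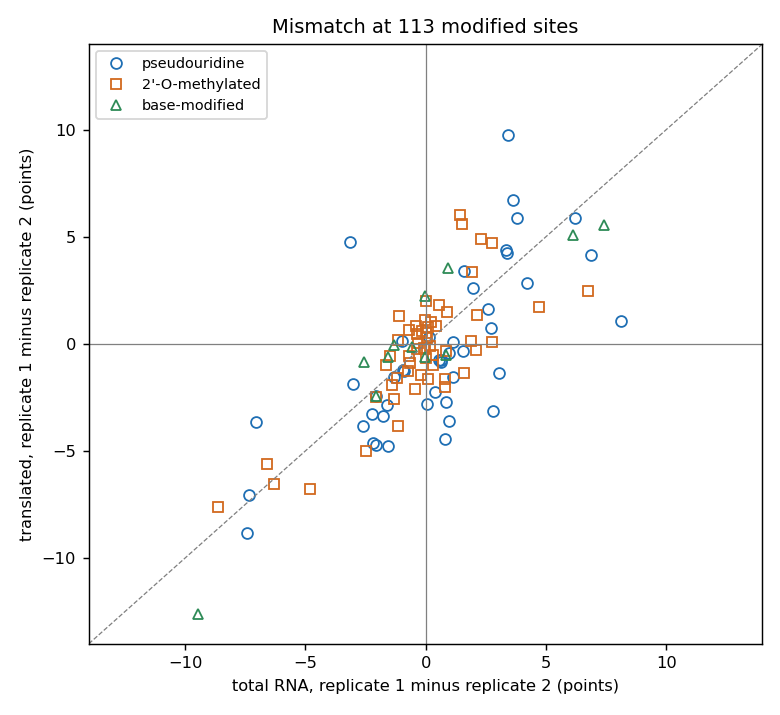
Replicate 1 minus replicate 2 in mismatch frequency (percentage points) at 113 modified sites, in total RNA (horizontal) and in translated fractions (vertical), with sites marked by class and the dashed line at equality. At 78 of 113 sites both groups have the same sign, beside 56.8% of all positions, and m1A645 lies furthest from the origin at -9.46 and -12.6 points.

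Coverage of the 2 large rRNAs relative to each other did not differ between groups beyond the replicate spread. The log2 ratio of mean 18S to 25S coverage was 0.05 and 0.36 in input and 0.32 and 0.54 in translated libraries (exact two-sided permutation p = 0.667). Reads start at the 3′ end in this method, and coverage fell toward the 5′ end. The log2 ratio of coverage in the first 25% of 25S to that in the last 25% was -1.47 and -3.46 in input and -2.09 and -2.47 in translated libraries (exact p = 1). For 18S it was -1.40 and -2.001 in input and -1.39 and -1.58 in translated libraries (exact p = 0.667). Input replicate 2 had the lowest ratio for both rRNAs, and the groups overlapped for both. The log2 ratio of 5S to 25S coverage ranged from -3.80 in input replicate 1 to 0.04 in translated replicate 2, and fewer copies cannot be told apart from unequal capture of a short RNA.

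**Figure D5:**
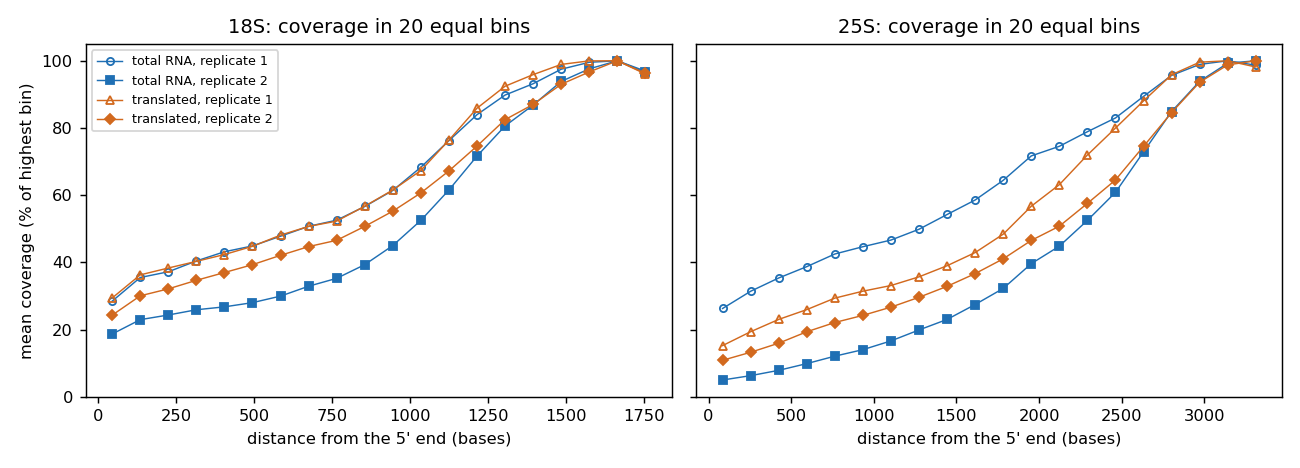
Mean coverage of 18S and 25S in 20 equal bins, as percent of the highest bin of each library, against distance from the 5′ end in bases. In the first bin of 25S coverage is 26.3% and 5.00% of the highest in input replicates 1 and 2 and 15.2% and 10.9% in translated replicates 1 and 2.

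The effect of the fraction on mismatch was also compared between untreated and peroxide-treated cells, by the interaction of fraction and treatment in the 8 libraries. No position passed, which is 0% of 4535 tested, with 114 at an unadjusted p under 0.05 in the quasi-likelihood F test. Mean mismatch over the 45 Ψ sites in treated cells was 47.9% and 47.4% in input and 47.7% and 46.9% in translated libraries, a difference of -0.358 points beside the -0.516 points in untreated cells. Translated replicate 2 of the treated cells had a median coverage of 135 reads, the lowest of the 8.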

How the data were processed

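Nanopore direct RNA libraries of yeast rRNA were used as processed by the authors, in tables named for EpiNano. Per the file headers, coverage at each rRNA position is a count of reads. Mismatch, insertion and deletion were deposited as a fraction of the reads at a position, and times coverage they gave whole numbers at 100% of values (tolerance 0.001). The deposited base quality is a score, used as given. No source used here names the basecaller, aligner, filters or genome build, so positions are given within each rRNA. By length the 18S, 25S, 5.8S and 5S references match genes RDN18-1, RDN25-1, RDN58-1 and RDN5-1 of a RefSeq gene table.

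Groups came from the sample labels. At each position error counts entered a quasi-binomial logistic model with a quasi-likelihood F test in R 4.3.3, with the dispersion moderated by squeezeVar of limma 3.58.1 along log coverage and floored at 1. Base quality was fitted with limma (eBayes with trend). P-values were Benjamini-Hochberg adjusted over all positions, with a threshold of 0.05. Single values were tested by exact permutation over 6 assignments. The models were also run on simulated mismatch counts and base quality scores, and insertion and deletion counts were not simulated. Fits with the peroxide libraries needed 50 reads in all 8. Named positions were those called at known sites, the 5 lowest p-values per feature, the 5 largest differences per class of site, and the snR3, snR34, snR36, helix 69, peptidyl transferase and decoding sites. Members, lists and tests were chosen with earlier results of these data known, and the list of modified sites was not checked against a database. Alternatives were coverage minimums of 30 and 100, each library left out, a replicate block, a common median, limma on empirical logits, no dispersion floor, no trend, all 8 libraries, medians over positions, another distance to known sites and trimmed ends. Other steps used Python 3.11.15 with pandas 2.3.3, numpy 2.4.6 and scipy 1.17.1, and figures matplotlib 3.10.9.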

Additional observations from a re-analysis of the deposited data

Results flagged for a closer look

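The insertion values at Am807 of 25S differed in opposite directions in untreated and treated cells, without overlap of the single values. It was lower in both translated libraries of untreated cells, as given above, and higher in both translated libraries after peroxide, at 18.2% and 17.9% in H202input and 19.7% and 20.5% in H202translated, a difference of 2.05 points. The difference between the effects was not tested, because the position had under 50 reads in a treated library. The 20.5% came from H202translated replicate 2, whose median coverage over all positions was 135 reads, the lowest of the 8 libraries. Lack of overlap between single values takes no account of counting error, so it does not establish a reversal. The share of all positions with such opposite directions is not given.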

How the results depend on the processing

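With each library left out in turn, the number of positions called ranged from 1 to 3 for insertion, 0 to 1 for deletion and 0 to 2 for base quality, and stayed at 0 for mismatch. The insertion call without translated replicate 2 was position 3302 of 25S, not the 18S end. The deletion call (position 947 of 18S) and 2 base quality calls in 5S also came without that library, and the other 2 base quality calls (positions 1799 of 18S and 3396 of 25S) without input replicate 1. The number of insertion calls was 0 with all 8 libraries and 0 with limma on empirical logits. With the replicate block, 0 positions were called for mismatch, 3 for insertion, 0 for deletion and 23 for base quality (18 higher and 5 lower). Among the 23 were the last base of 18S, the last base and position 3392 of 25S, and positions 111 and 151 of 5.8S. With the replicate block and a shift to a common median, chosen after seeing the data, 0, 2, 0 and 0 were called. The deviations of same-numbered libraries from their group means correlated across positions, with r from 0.443 for deletion to 0.511 for mismatch, but with 2 pairs and no such label the numbers were not taken as a pairing. With medians over positions the difference was 0.554 points for mismatch over Ψ, 0.302 for insertion over Nm and 0.163 for insertion over unmodified positions, and it was -0.136 for insertion over Nm relative to unmodified positions. With each library left out, the Ψ difference ranged from -0.755 to -0.277 points and the Nm difference from -0.0826 to 0.0606. The log2 5′ to 3′ difference ranged from -0.81 to 1.17 for 25S and from -0.09 to 0.51 for 18S, and base quality over unmodified positions from -0.280 to 0.0608. Neither of the 2 called differences turned its direction with a library left out. Among the 53 named differences and their 621 alternative values, uncalled differences turned sign 32 times, each time with a library left out. The other settings leave the difference of group means at a position as it is, so its sign could not turn there. The causes of these changes were not tested. Depth limits 5S and 5.8S most, where translated replicate 1 had 72 reads at Ψ50 and 95 at Ψ73.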
